A study of Mus musculus with 14 samples.

Results

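Hepatokines are proteins that the liver releases into blood and that act as hormones or regulators on other tissues. The 9 genes described here encode fibroblast growth factor 21 (Fgf21), the angiopoietin-like proteins Angptl4 and Angptl6, leukocyte cell-derived chemotaxin 2 (Lect2), the fetuins Ahsg (fetuin-A) and Fetub (fetuin-B), and the activin and inhibin beta subunits Inhba, Inhbc and Inhbe. They were chosen by name, and each was found through the RefSeq accession of its probe, among 19751 named genes on the array. Each had 1 probe, and all 9 probes were well above background in both channels of all 14 arrays. Liver RNA came from CD-1 mice, an outbred strain, in 6 groups named by sex and age in weeks: males at 3, 4 and 8 wk (M3, M4, M8) and females at the same ages (F3, F4, F8). The mice carried no allele and received no agent that the labels name. Each group had 2 pools, of 5 mice at 3 wk and of 6 mice at 4 and 8 wk. The 3 sex comparisons (M3/F3, M4/F4 and M8/F8) and the 4 age comparisons (M8/M3 and M8/M4 in males, F8/F3 and F8/F4 in females) had 2 arrays each, from separate pools with the dyes exchanged, and asked how expression differs between the sexes and between prepubertal and adult liver.

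FGF21 is a fasting and stress hormone that signals through FGF receptors with the co-receptor beta-Klotho, and its gene is a known target of PPARalpha in fasted or suckling liver and of the amino acid and ER stress response. ANGPTL4 inhibits lipoprotein lipase, and ANGPTL6 is a secreted relative with reported metabolic actions. LECT2 is made chiefly by hepatocytes and binds the receptors Met and Tie1. Fetuin-A binds calcium phosphate in plasma and inhibits insulin receptor signalling, and fetuin-B inhibits the egg protease ovastacin. The beta subunits pair to form activins and inhibins, which are ligands of the TGF-beta family. Inhbc and Inhbe are expressed mostly in hepatocytes, whereas Inhba is also made by other cell types.

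The sequences below are those of Fgf21 and Inhbe, which were both lower in M8 than in M3 and M4. Among the 8 genes with a promoter in the RefSeq table (all but Angptl4), only these held TGATGCAA, an amino acid response element. It was sought on either strand within 250 bases before the gene start. Ahsg and Lect2 were also lower in M8 than in M3 and M4, and they did not hold it. The stretches are from RefSeq (GRCm38.p6), read 5′ to 3′ on the strand of the gene, and the capitals mark the element, which lies in reverse orientation in both. In Fgf21 the window is chr7:45615572-45615679 (minus strand) and the element covers bases 139 to 132 before the start. In Inhbe the window is chr10:127351972-127352079 (minus strand) and the element covers bases 181 to 174 before the start.
Fgf21: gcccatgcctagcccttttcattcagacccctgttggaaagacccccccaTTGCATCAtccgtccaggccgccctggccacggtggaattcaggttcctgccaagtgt
Inhbe: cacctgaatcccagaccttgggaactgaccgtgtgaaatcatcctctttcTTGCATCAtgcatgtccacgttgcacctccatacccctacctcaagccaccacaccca

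Of 27025 genes in the promoter table, 248 (0.918%) held this element. In all, 16 patterns were searched on both strands after the expression results were known, so the match is a description and not a test. The looser form TGATGNAA was held by the same 2 members and by 3.91% of genes. TATAAA was found in Fgf21, Fetub and Inhba (14.3% of genes), CCAAT in Inhbe and Fetub (37.5%), CACGTG in Fgf21 (6.86%) and TGTTTAC in Fetub (3.54%). No member held the direct repeat of nuclear receptors known as DR1 (0.0407% of genes) or 2 looser forms of it (0.204% and 2.92%), the HNF1 motif (0.0111%) or its shorter form (0.44%), TTCNNNGAA (8.13%), CAAAGTCCA (0.451%), TTGNNCAA (6.51%), TGACGTCA (1.77%) or its core TGACGT (7.29%).

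Ratios are given as the log2 of the first group over the second, so that a negative value means lower expression in male liver (M3/F3, M4/F4, M8/F8) or at 8 wk (the other comparisons). A call required an adjusted p below 0.05 in the limma fit to all 14 arrays, a ratio more extreme than 1.5-fold in either direction, and signal well above background on both arrays in 1 or both of the groups. The standard error of a log2 ratio was 0.30 for Fgf21, 0.27 for Angptl4, 0.25 for Inhba, 0.24 for Inhbc, 0.14 for Inhbe, 0.11 for Lect2 and 0.07 for Ahsg, Fetub and Angptl6. Same-numbered pools appear to have been used again across comparisons. An estimated 90.2% of the variance between replicate arrays came from pools. The fit treats the 14 arrays as independent and takes 1 spread for each probe from all of them, with only 2 pools a group. Its p-values do not allow for shared pools. The fit also holds 1 dye term for each probe. In M3, M4 and F8 each pool was in 1 dye on all its arrays, so this term cannot be told apart from differences between those pools.

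The calls were mostly falls with age, and more of them were made in male than in female liver. In M8/M3, 5 of the 9 genes were called and all 5 were lower at 8 wk (Fgf21, Ahsg, Lect2, Inhbe and Inhba), where 17.9% of 14447 genes tested were called in either direction and 10% were called lower. In M8/M4, 4 were called lower (Fgf21, Ahsg, Inhbe and Lect2), against 10.9% called in either direction and 6.39% called lower. In F8/F3, 3 were called lower (Fgf21, Inhba and Ahsg), against 11.7% and 6.67%, and in F8/F4 only Ahsg was, against 6.02% and 3.73%. The median log2 ratio of the 9 genes was -0.96 (M8/M3) and -0.59 (M8/M4) in males and -0.34 (F8/F3) and -0.22 (F8/F4) in females, and that of all genes tested was between 0.01 and 0.02 in each of the 4. No member was called higher with age. The age comparisons of 1 sex share their 8 wk pools, so within a sex they are not independent of each other.

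Between the sexes, no member was called in M3/F3, where 0.517% of genes were called and 3 members had an unadjusted p below 0.05. In M4/F4 1 member was called, Fgf21, which was higher in male liver (1.58% of genes were called in either direction and 0.611% were called higher). In M8/F8 Lect2 and Ahsg were called, both lower in male liver (6.39% and, for lower, 3.74%).

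**Figure D1:**
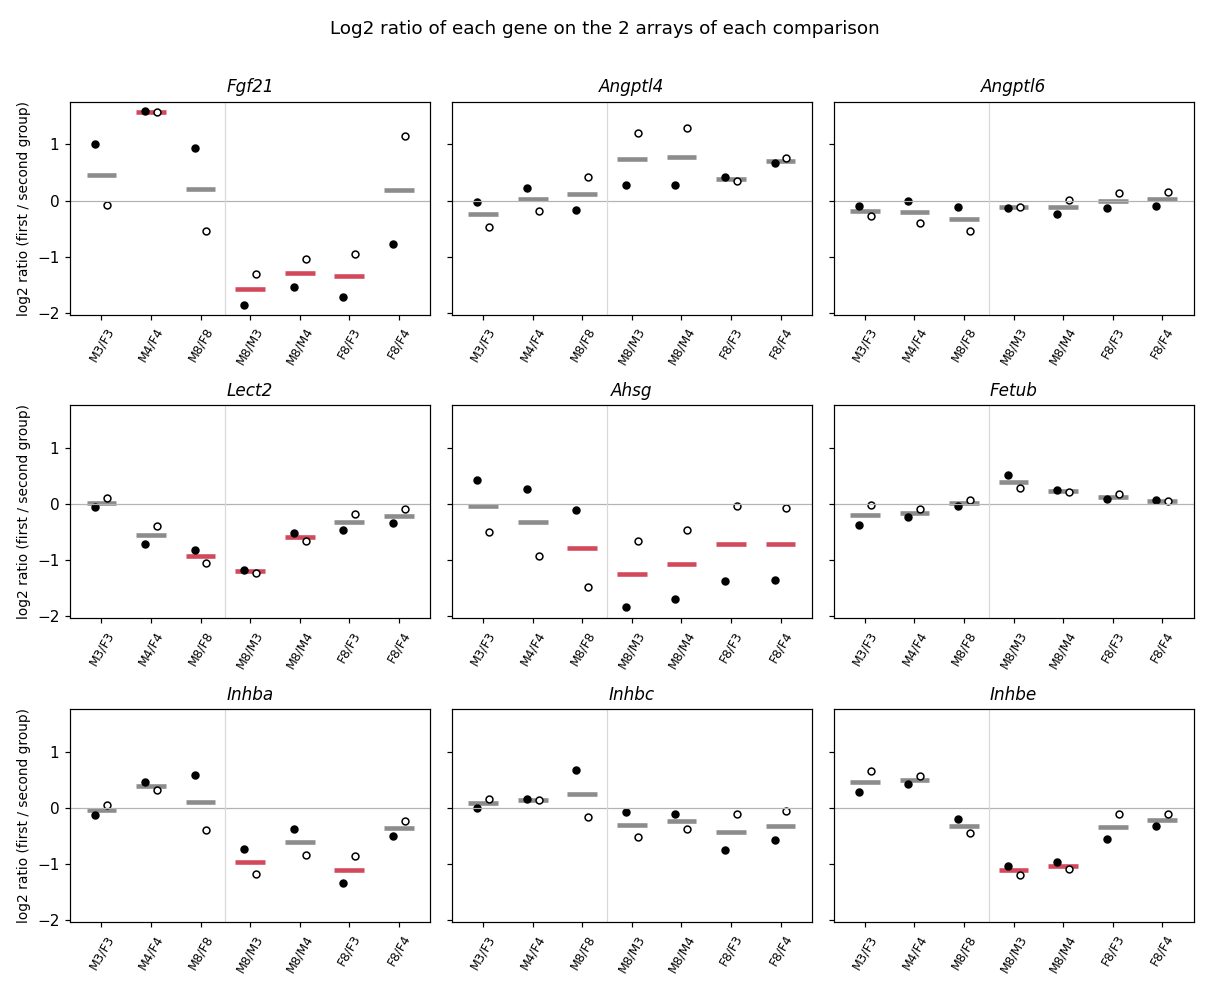
Log2 ratio (y axis) of the 9 genes on the 2 arrays of each of the 7 comparisons (x axis), with filled circles for replicate 1, open circles for replicate 2, and a bar for their mean, red where the gene was called. Inhbe and Lect2 lie close together on both arrays of M8/M3 and M8/M4, whereas the 2 arrays of Fgf21 in F8/F4 and of Ahsg throughout lie far apart. The 2 arrays have opposite dyes, and the dye term is not taken out of the points.

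Fgf21 encodes the only member of the endocrine FGF group examined here, and it had the largest fitted ratio of the 9 genes. In M4/F4 the 2 arrays gave 1.59 and 1.58, a mean of 1.59 or a 3.00-fold higher level in male liver (adjusted p = 0.0156). Both arrays showed the same size of difference before the dye term was taken out. With that term in the fit they differed, since leaving out replicate 1 gave a ratio of 2.10 (adjusted p = 0.0225) and leaving out replicate 2 gave 1.07, which was no longer called (adjusted p = 0.158, within a range of 0.0121 to 0.158 over all arrays left out in turn). In M3/F3 the arrays gave 1.00 and -0.08, and in M8/F8 0.94 and -0.55, so neither was called (adjusted p = 0.426 and 0.856).

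With age, Fgf21 fell in male liver. The M8/M3 arrays gave -1.86 and -1.31 (mean -1.58, adjusted p = 0.0156), and the M8/M4 arrays gave -1.53 and -1.04 (mean -1.29, adjusted p = 0.0338). All 4 male arrays were therefore below -1. The M8/M3 call was lost without either of its own arrays, with values of -1.79 without replicate 1 (adjusted p = 0.0703) and -1.38 without replicate 2 (adjusted p = 0.138), within 0.0121 to 0.138 over the 14 arrays. The M8/M4 call was kept without each of 6 of the 14 arrays, those of M4/F4, M8/F8 and F8/F4, and its adjusted p ranged from 0.0232 to 0.244 over all 14. With the replicate number as a block the M8/M4 ratio had an adjusted p of 0.0537. The dye term of Fgf21 was 0.45 (adjusted p = 0.0621), and without this term in the fit none of its 4 calls stood.

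In female liver Fgf21 fell between 3 and 8 wk. The F8/F3 arrays gave -1.72 and -0.96 (mean -1.34, adjusted p = 0.0289), and this call was kept without each of the same 6 arrays (adjusted p 0.0203 to 0.181 over the 14). It was lost with the replicate number as a block within each scan day (the slide block). The F8/F4 arrays gave -0.78 and 1.14, opposite directions, with a mean of 0.18 (adjusted p = 0.881). Pool levels are not corrected for dye. The first pools of M3 and M4 and the second pool of F8 were in red on all their arrays, and the other pool of each was in green, so in these groups a gap between pools cannot be told apart from a dye difference. The mean of each group holds both dyes equally. By pool, the log2 normalized signal of Fgf21 was 9.50 and 10.41 in F3, 8.64 and 8.58 in F4, and 8.09 and 9.48 in F8. In males it was 10.51 and 10.20 in M3, 10.11 and 9.89 in M4, and 8.74 and 9.07 in M8. The order of the group means was M3, M4, F3, M8, F8 and F4, in which the uncorrected ranges of F3 overlapped those of M3 and M4, and those of F8 overlapped those of M8 and F4.

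The difference between the sexes in the change from 4 to 8 wk (M8/M4 minus F8/F4) was -1.47 for Fgf21, with a 95% confidence interval of -2.49 to -0.45, and was not called (adjusted p = 0.199). With 6 group means in place of the 7 comparisons it was called, at -1.42 (adjusted p = 0.00890, and 0.00890 to 0.630 over the alternatives that give an adjusted p). From 3 to 8 wk it was -0.24 (adjusted p = 0.895). The indirect 4 wk over 3 wk difference through the shared 8 wk pools, F8/F3 minus F8/F4, was -1.52 in females (adjusted p = 0.274) and M8/M3 minus M8/M4 was -0.30 in males (adjusted p = 0.911). In the fit used here, in neither of these contrasts was any of the 9 genes called, where 0.0931% and 0.292% of genes were, and each had 1 member with an unadjusted p below 0.05. With the pools that comparisons share held in the covariance of the arrays, Lect2 was called in M8/M3 minus M8/M4, at -0.61 (adjusted p = 0.0422), and the number of all genes called there was 174 in place of 44. With 6 group means Lect2 was called there too, at -0.63 (adjusted p = 0.0179, and 0.0179 to 0.545 over the alternatives that give an adjusted p), as was Fgf21 in F8/F3 minus F8/F4, at -1.49 (adjusted p = 0.0343, and 0.0343 to 0.728 over the alternatives that give an adjusted p).

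Among the genes most like Fgf21 over the 14 log2 ratios were Dda1 (Pearson's r = 0.948), Prmt5 (0.942) and Prkrip1 (0.942), of 12305 genes above background throughout. The 14 ratios share pools and dyes, so these correlations are descriptions.

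Of 13 genes of FGF receptors and FGF21 signalling, 10 were tested in each comparison named here, and their median was 0.10 for M8/M3 and 0.17 for F8/F3 on the log2 scale. Klb, which encodes beta-Klotho, rose in F8/F3 (0.65, adjusted p = 0.000778) and was the only gene of the list to rise there. Dusp6, a phosphatase of the ERK pathway, fell in M8/M3 (-0.77, adjusted p = 0.00387), where Spry4, an inhibitor of the same pathway, rose (0.76, adjusted p = 0.00235). Egr1, an immediate early gene induced through ERK, was the 1 gene called in M4/F4, and it was lower in male liver (-1.30, adjusted p = 0.0319).

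Of 14 PPARalpha targets, 6 fell and 1 rose in M8/M3 (median -0.30), and 6 fell and none rose in M8/M4 (median -0.40). Cyp4a14, a fatty acid hydroxylase, was at -3.11 in M8/M3 (adjusted p = 0.00166). Cyp4a10, its close relative, was at -2.26 in M8/M4 (adjusted p = 0.000541), and Vnn1, a pantetheinase, was at -2.74 in M8/M4 (adjusted p = 0.013). In F8/F3 and F8/F4 only Acot3 of the list was called, higher at 8 wk. Acot3, an acyl-CoA thioesterase, was at -3.57 in M8/F8 (adjusted p = 0.000189), where 3 of the 14 were called lower in male liver. Near-identical copies of these Cyp4a and Acot genes may share probes, so their values are uncertain.

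Of 17 amino acid and ER stress targets tested, 7 fell and 2 rose in M8/M3 (median -0.65), and 4 fell and 3 rose in F8/F3 (median -0.12). Asns, Psat1 and Mthfd2, enzymes of asparagine, serine and one-carbon synthesis, were at -2.44, -2.30 and -2.22 in F8/F3 (adjusted p = 0.000311, 0.000602 and 0.0015). Trib3, a pseudokinase induced by the same response, went the other way, at 2.67 in M8/M3 (adjusted p = 0.00639). The list therefore did not move in 1 direction in either sex.

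**Figure D2:**
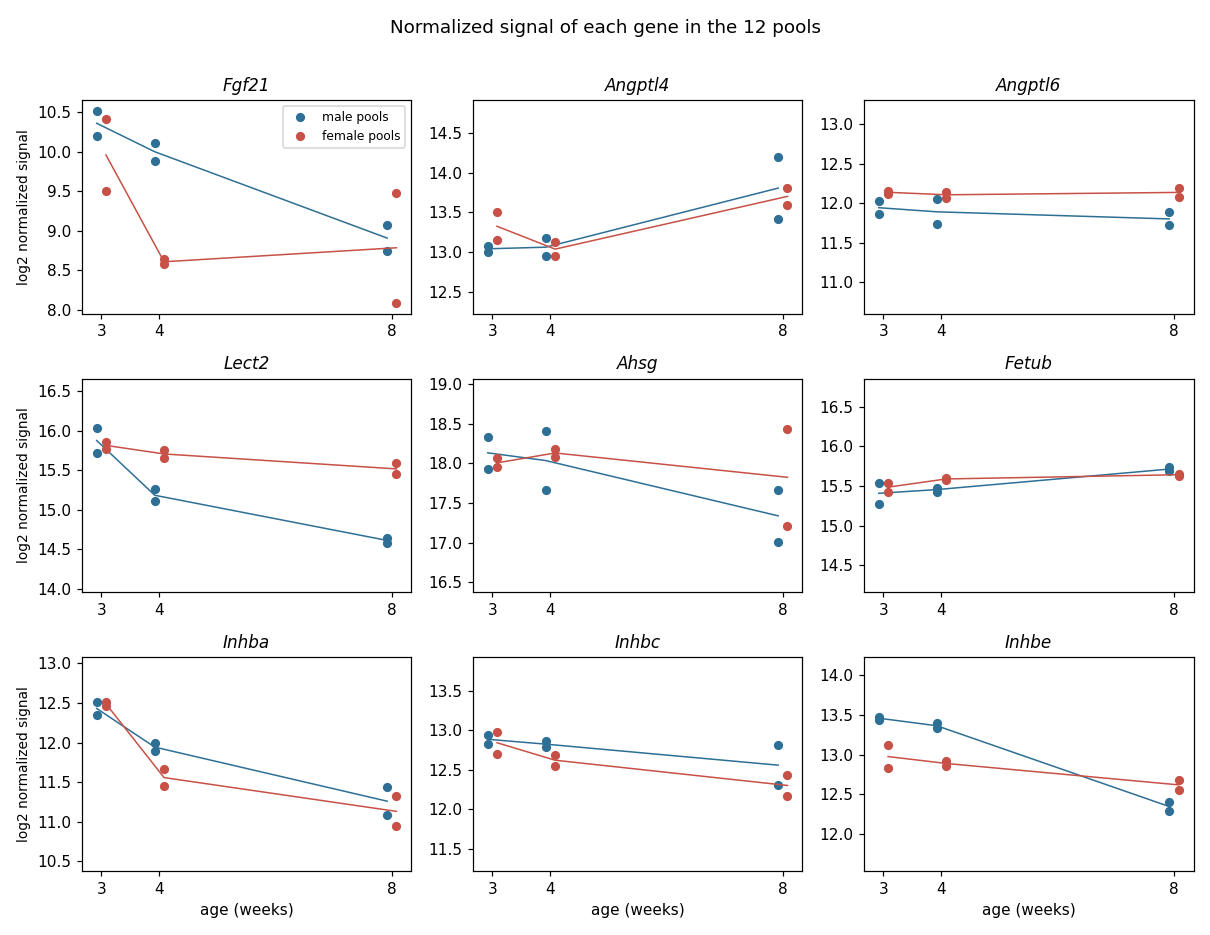
Log2 normalized signal (y axis, the same span in every panel) of the 9 genes in the 12 pools against age in weeks (x axis), with male pools in blue, female pools in red and lines through the group means. Lect2 and Inhbe are low in both M8 pools. Signal carries dye differences, and in M3, M4 and F8 each pool was in 1 dye on all its arrays, so the distance between the 2 pools of these groups (as for Fgf21 and Ahsg in F8) cannot be told apart from dye, and heights are not compared between panels.

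Lect2 had its lowest signal in adult male liver. In M8/F8 the arrays gave -0.82 and -1.04, a mean of -0.93, that is 1.91-fold lower expression in male liver (adjusted p = 0.00286). In M4/F4 they gave -0.70 and -0.38 (mean -0.54, adjusted p = 0.0227), a ratio that did not reach the fold threshold but was called without replicate 2 (-0.73, adjusted p = 0.0291, and 0.00180 to 0.216 over the alternatives that give an adjusted p), and in M3/F3 -0.06 and 0.11 (mean 0.03, adjusted p = 1). The sex ratio was thus near 0 at 3 wk and negative on both arrays at 4 wk and at 8 wk.

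In male liver Lect2 fell by 1.20 in M8/M3 on the log2 scale (arrays -1.16 and -1.23, adjusted p = 0.00113) and by 0.59 in M8/M4 (arrays -0.51 and -0.67, adjusted p = 0.017). The ratio in M8/M4 lay just past the fold threshold. Without either of its own arrays the M8/M4 call was lost, at -0.68 without replicate 1 (adjusted p = 0.0641) and -0.49 without replicate 2 (adjusted p = 0.158), within 0.0174 to 0.158 over the 14 arrays. In female liver the F8/F3 arrays gave -0.46 and -0.18 (mean -0.32, adjusted p = 0.123) and the F8/F4 arrays -0.34 and -0.09 (mean -0.22, adjusted p = 0.3). These 4 female ratios were all below 0 and none was as low as the male ratio of the same ages.

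The change from 3 to 8 wk differed between the sexes for Lect2. M8/M3 minus F8/F3 was -0.87 (95% confidence interval -1.26 to -0.49, adjusted p = 0.0346), and it was the only 1 of the 9 genes called in this contrast, in which 3.35% of genes were called and 1.72% were called lower. Of the 14 fits with 1 array left out, the call was kept only without either array of M4/F4, and the adjusted p ranged from 0.0396 to 0.161. The call was also lost with the slide block. The same difference implied by the sex comparisons (M8/F8 minus M3/F3), which were on other arrays of the same pools, was -0.96. From 4 to 8 wk the difference was -0.37 (adjusted p = 0.401), and in that contrast no member was called, where 1.33% of genes were and 3 members had an unadjusted p below 0.05.

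By pool, the log2 normalized signal of Lect2 was 15.71 and 16.04 in M3, 15.11 and 15.26 in M4, 14.58 and 14.65 in M8, 15.85 and 15.77 in F3, 15.76 and 15.66 in F4, and 15.45 and 15.59 in F8. The order was M3, F3, F4, F8, M4 and M8, in which M3 overlapped F3 and F4. The genes most like Lect2 were Tgm1 (r = 0.957), Lsr (0.950) and Dpy30 (0.944).

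Of the 5 LECT2 receptor genes, 4 were tested in each comparison. Met, the hepatocyte growth factor receptor, was the 1 gene of the list called, and it rose in M8/M3 (0.86, adjusted p = 0.000158), where the median of the 4 was near 0. Of 8 macrophage markers, all well above background, 5 were called lower in M8/F8 (median -0.59). Their summed normalized signal was 43648 and 53248 in the M8 pools and 67519 and 73197 in the F8 pools. The part of these cells in the Lect2 sex difference was not tested. In bulk liver, fewer cells of a type and less RNA per cell cannot be told apart.

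Ahsg and Fetub lie near each other on chromosome 16 and encode relatives with a cystatin fold, yet their ratios differed. Ahsg fell with age in both sexes. The arrays gave -1.83 and -0.66 in M8/M3 (mean -1.25, adjusted p = 0.000193), -1.69 and -0.45 in M8/M4 (mean -1.07, adjusted p = 0.000301), -1.37 and -0.04 in F8/F3 (mean -0.70, adjusted p = 0.00125) and -1.35 and -0.06 in F8/F4 (mean -0.71, adjusted p = 0.00123).

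In each of these the 2 arrays, which had opposite dyes and separate pools, gave unlike ratios. The dye term of Ahsg was 0.61, larger in size than that of 98.8% of probes (adjusted p = 0.000693), and the fit takes it out. Every comparison holds M3, M4 or F8, whose pools each kept 1 dye, so this term can hold pool differences too. The standard error of 0.07 leaves out what the term took up. Without the dye term none of the 5 Ahsg calls stood (adjusted p = 0.258 for M8/M3, 0.346 for M8/M4, 0.613 for F8/F3, 0.611 for F8/F4 and 0.542 for M8/F8), while the means themselves stayed as given. With normexp background correction and loess, F8/F3 was at -0.49 and F8/F4 at -0.54, both under the fold threshold. With the error-weighted average of both arrays and the threshold of 0.0001 that goes with it, none of the 5 was called.

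In M8/F8 the Ahsg arrays gave -0.11 and -1.47, a mean of -0.79 (adjusted p = 0.000842), and in M4/F4 they gave 0.28 and -0.92, a mean of -0.32 (adjusted p = 0.0244) that did not reach the fold threshold. In M3/F3 they gave 0.44 and -0.49 (mean -0.03). The difference in age change between the sexes, M8/M3 minus F8/F3, was -0.54 (adjusted p = 0.0319) and did not reach the fold threshold. It was called with normexp and loess, at -0.80 (adjusted p = 0.0134), and with 6 group means, at -0.64 (adjusted p = 0.000305, and 0.000305 to 0.918 over the alternatives that give an adjusted p). By mean signal the order of the groups was M3, F4, M4, F3, F8 and M8. The pools read 17.00 and 17.67 in M8 and 17.21 and 18.44 in F8. The uncorrected ranges of F8 overlapped those of M8, M3, M4, F3 and F4, and the range of M8 overlapped that of M4. Each F8 pool was in 1 dye throughout, so dye and pool cannot be told apart in the F8 range. The gene most like Ahsg was Alb, which encodes albumin (r = 0.985), followed by Orai3 (0.949) and Antkmt (0.945). Alb was at -0.71 in M8/M3 (adjusted p = 0.00553).

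Fetub was not called in any comparison. Its arrays gave 0.51 and 0.28 in M8/M3 (mean 0.40, adjusted p = 0.0123), a 1.32-fold rise that did not reach the fold threshold, and 0.25 and 0.21 in M8/M4 (mean 0.23, adjusted p = 0.0831). In females the means were 0.14 in F8/F3 and 0.06 in F8/F4. The sex ratios were -0.20, -0.16 and 0.02 at 3, 4 and 8 wk. The group means of its log2 normalized signal lay between 15.41 (M3) and 15.71 (M8), in the order M8, F8, F4, F3, M4 and M3, where F3, M4 and M3 overlapped each other. All 8 deposited age ratios of Fetub were above 0 and all 8 of Ahsg were below 0. After normexp and loess those of Fetub stayed above 0, whereas Ahsg was above 0 on the second arrays of M8/M4 (0.08), F8/F3 (0.59) and F8/F4 (0.53). Of 6 other cystatin-fold plasma proteins and fetuin partners tested, Mep1b, which encodes the beta subunit of meprin, a protease that fetuins inhibit, was the 1 called in M8/F8, at 3.19 (adjusted p = 0.000633).

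Inhbe fell in male liver, and its lower values at 8 wk in female liver were not called. The M8/M3 arrays gave -1.03 and -1.19 (mean -1.11, 2.16-fold lower, adjusted p = 0.00277), and the M8/M4 arrays -0.97 and -1.09 (mean -1.03, 2.04-fold lower, adjusted p = 0.0037). Both calls were kept without each of the 14 arrays. In females the F8/F3 arrays gave -0.56 and -0.12 (mean -0.34, adjusted p = 0.164) and the F8/F4 arrays -0.32 and -0.11 (mean -0.22, adjusted p = 0.394). All female ratios were nearer 0 than all male ratios.

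The difference between the sexes in this change was -0.77 from 3 to 8 wk (95% confidence interval -1.23 to -0.31, adjusted p = 0.0835) and -0.81 from 4 to 8 wk (adjusted p = 0.118), and neither was called in the fit used here. With 6 group means both were called, at -0.78 (adjusted p = 0.00175, and 0.00175 to 0.415 over the alternatives that give an adjusted p) and -0.81 (adjusted p = 0.00277, and 0.00277 to 0.513), and the error-weighted average called the latter, at -0.81. The sex comparisons implied -0.79 and -0.82 for the same differences. The Inhbe sex ratio was 0.28 and 0.65 in M3/F3 (mean 0.46, adjusted p = 0.0706), 0.42 and 0.56 in M4/F4 (mean 0.49, adjusted p = 0.0596) and -0.20 and -0.45 in M8/F8 (mean -0.33, adjusted p = 0.179). None was called, but the ratio was above 0 on all 4 arrays at 3 and 4 wk and below 0 on both at 8 wk. By signal, the order of the groups was M3, M4, F3, F4, F8 and M8, in which only F3 and F4 overlapped.

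**Figure D3:**
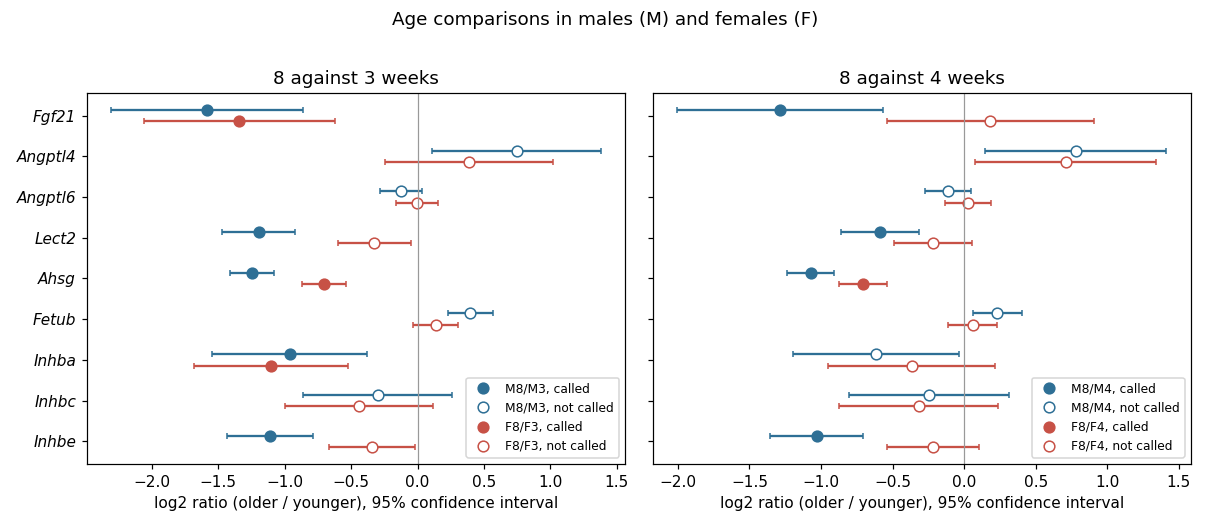
Log2 ratio of 8 wk over 3 wk (left) and of 8 wk over 4 wk (right) for the 9 genes (y axis) in males (blue) and females (red), with 95% confidence intervals from the limma fit and filled points where the gene was called. Inhbe and Lect2 lie near -1.11 and -1.20 in M8/M3 and nearer 0 in F8/F3, whereas Fgf21 and Inhba lie close together in both sexes between 3 and 8 wk.

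Inhbc, the direct neighbour of Inhbe on chromosome 10, was not called in any comparison. Its age ratios were -0.30 and -0.24 in males (M8/M3, M8/M4) and -0.44 and -0.32 in females (F8/F3, F8/F4), with adjusted p from 0.307 to 0.648. All 8 age arrays were below 0, from -0.76 to -0.06. The sex ratios were 0.08, 0.15 and 0.25 at 3, 4 and 8 wk. By signal the groups ranked M3, F3, M4, F4, M8 and F8, with means from 12.89 to 12.30, and all neighbours but M4 and F4 overlapped.

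Inhba fell between 3 and 8 wk in both sexes. The M8/M3 arrays gave -0.74 and -1.19 (mean -0.96, adjusted p = 0.044) and the F8/F3 arrays -1.35 and -0.86 (mean -1.10, adjusted p = 0.027). From 4 to 8 wk the means were -0.62 in males (arrays -0.38 and -0.85, adjusted p = 0.163, but called with 6 group means at -0.63, adjusted p = 0.0374, and 0.0374 to 0.783 over the alternatives that give an adjusted p) and -0.37 in females (arrays -0.51 and -0.23, adjusted p = 0.436). The difference between the sexes was 0.14 from 3 to 8 wk, with a 95% confidence interval of -0.68 to 0.96 (adjusted p = 0.962). The interval is too wide to say that the sexes changed alike.

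The Inhba calls were near the threshold. The M8/M3 call was kept only without either array of M8/F8 (adjusted p 0.0242 to 0.339 over the 14 arrays), and with the replicate block its adjusted p was 0.0548. The F8/F3 call was lost without each array of M4/F4 (adjusted p = 0.0523 and 0.0511), F8/F3 (-0.89 and -1.32, adjusted p = 0.215 and 0.0854) and F8/F4 (adjusted p = 0.0525 and 0.0514), and its adjusted p ranged from 0.0157 to 0.215 over the 14. This call was also lost with the slide block.

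The log2 normalized signal of Inhba followed the order F3, M3, M4, F4, M8 and F8, in which F3 and M3, and M8 and F8, overlapped. Of 7 markers of stellate cells and fibroblasts, which can also make Inhba, 3 fell in M8/M3 and 2 in each of M8/M4, F8/F3 and F8/F4 (median from -0.49 to -0.25). Their summed normalized signal was 151933 to 175729 in the 4 pools of 3 wk and 72473 to 92300 in the 4 pools of 8 wk. Col1a1 and Col3a1, which encode fibrillar collagens, were at -2.25 and -2.19 in M8/M3 (adjusted p = 0.00188 and 0.000169). The part of these cells in the fall of Inhba was not tested.

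Of 14 other genes of the activin pathway tested, 3 rose and 2 fell in M8/M3 (median 0.16), and 1 rose and 1 fell in F8/F3 (median 0.13). Fst, which encodes the activin antagonist follistatin, was higher at 8 wk in M8/M3 (1.48, adjusted p = 0.00334), and Fstl3, a related antagonist, was lower (-0.67, adjusted p = 0.0181). Acvr2b, an activin type II receptor, rose in F8/F3 (1.04, adjusted p = 0.000114). Inhbb, the remaining beta subunit, fell in M8/M3 (-1.01, adjusted p = 0.00098).

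Angptl4 had age ratios above 0 on all 8 arrays, but none of the 4 comparisons was called in the fit used here. The error-weighted average called F8/F4, at 0.71. A fit with 6 group means called M8/M3 at 0.75 (adjusted p = 0.0252, and 0.0252 to 0.662 over the alternatives that give an adjusted p), M8/M4 at 0.79 (adjusted p = 0.0199, and 0.0199 to 0.670 over the alternatives that give an adjusted p) and F8/F4 at 0.70 (adjusted p = 0.0330, and 0.0330 to 0.517 over the alternatives that give an adjusted p). With the pools that comparisons share held in the covariance of the arrays, M8/M4 was called at 0.78 (adjusted p = 0.0494). The M8/M3 arrays gave 0.28 and 1.21 (mean 0.75, 95% confidence interval 0.11 to 1.38, adjusted p = 0.126) and the M8/M4 arrays 0.27 and 1.29 (mean 0.78, adjusted p = 0.113). The F8/F4 arrays gave 0.66 and 0.75 (mean 0.71, adjusted p = 0.142) and the F8/F3 arrays 0.43 and 0.35 (mean 0.39, adjusted p = 0.451). Its log2 normalized signal ranked M8, F8, F3, M4, M3 and F4, with means from 13.81 to 13.04, and all neighbours but F8 and F3 overlapped. In males the second array was higher in both comparisons, and in M8/F8 it was too (-0.18 and 0.42).

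Adipocyte markers were also measured in the second M8 pool, which was on these 3 arrays. Adipoq, which encodes adiponectin, was well above background in M8 on all 3 arrays of that pool and on 1 of the 3 of the first pool. Its ratio was 3.31 in M8/M3 and 3.08 in M8/M4 on the arrays of the second pool, and -0.26 in M8/F8 on that of the first, the arrays where both groups were well above background. Cfd, which encodes the adipokine adipsin, was well above background in M8 on all 3 arrays of either pool. Both groups were so only in M8/M3 and M8/M4 of the second pool, where its ratio was 5.88 and 5.81, and no ratio is given for the other arrays. Plin1, a lipid droplet protein, was well above background in M8 on 2 arrays of the second pool and on 1 of the first. Of the 4 markers (Adipoq, Plin1, Cfd and Lep), 2 were well above background on all arrays of the second M8 pool and Lep was so in no pool. The summed normalized signal of the 4 was 445 and 1740.0 in the M8 pools, 391 and 776 in the F4 pools and between 342 and 496 in the other pools. Angptl4 is expressed in adipose tissue too, and the part of these cells in its ratios was not tested. Without the 3 arrays of the second M8 pool, chosen after the data were seen, Angptl4 was at 0.39 in place of 0.75 in M8/M3, at 0.38 in place of 0.78 in M8/M4, and at -0.29 in place of 0.12 in M8/F8.

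With those 3 arrays left out, each comparison of M8 rested on 1 array, and fewer genes of the whole array were called, 1095 in place of 2579 in M8/M3 and 488 in place of 1621 in M8/M4. Of the 9 calls of members in M8/M3 and M8/M4, those of Ahsg were left. Lect2 and Ahsg in M8/F8 (-0.82 and -0.70), Lect2 in M8/M3 minus F8/F3 (-0.84) and Fgf21 in M4/F4 and F8/F3, whose values did not move, were no longer called either. The lost ratios kept their direction. Inhbe was at -1.01 in M8/M3 and -0.96 in M8/M4, Lect2 at -1.16 and -0.50, and Fgf21 at -1.39 and -1.06. Inhba was at -0.65 in place of -0.96 in M8/M3, at -0.29 in place of -0.62 in M8/M4 and at 0.49 in place of 0.10 in M8/F8. Inhbc, which was not called, turned from -0.30 to 0.05 in M8/M3 and from -0.24 to 0.01 in M8/M4.

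**Figure D4:**
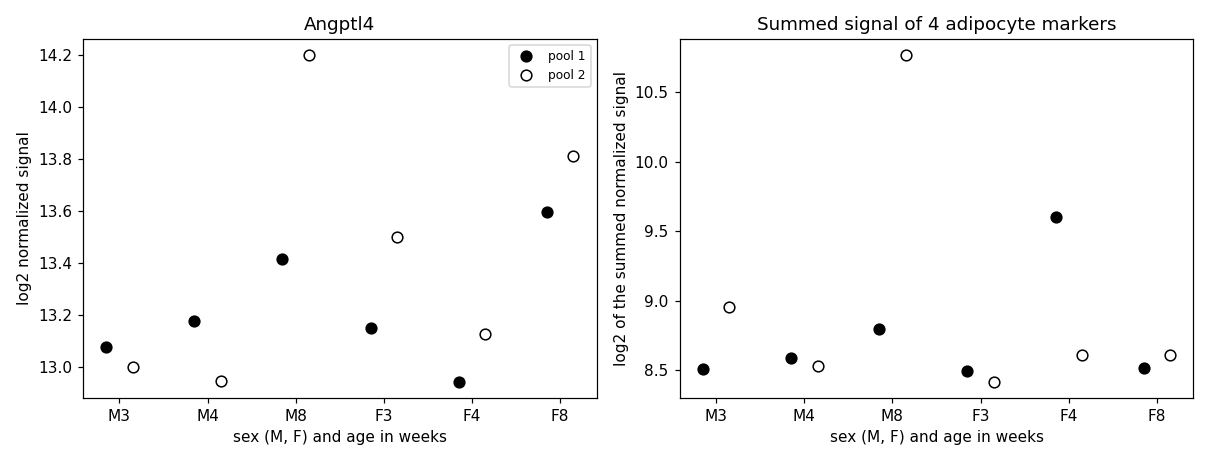
Log2 normalized signal of Angptl4 (left) and log2 of the summed signal of 4 adipocyte markers (right) in the 2 pools (filled, pool 1; open, pool 2) of each group on the x axis. The second M8 pool is highest in both panels, and the first F4 pool is second in the markers and among the lowest in Angptl4.

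Angptl6 was not called in any comparison. In M8/F8 its arrays gave -0.12 and -0.55 (mean -0.33, adjusted p = 0.0189), a 1.26-fold lower level in male liver that did not reach the fold threshold. The other sex ratios were -0.19 in M3/F3 and -0.20 in M4/F4, and the 4 age ratios lay between -0.12 and 0.03. None of its 6 sex arrays was above 0. By signal the female groups F3, F8 and F4 ranked above M3, M4 and M8, with means from 12.14 to 11.80, and all neighbours but F4 and M3 overlapped.

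Of 11 other angiopoietin-like proteins and lipases tested, 2 fell in M8/M3 (median -0.17), and 1 fell and 1 rose in F8/F3 (median 0.16). Lpl, the lipase that ANGPTL4 inhibits, was at -2.95 in F8/F3 (adjusted p = 5.37e-05). Angptl8, which acts on the same lipase, was at -1.36 in M8/M3 (adjusted p = 0.00102). Lipg, which encodes endothelial lipase, was lower in male liver in M8/F8 (-1.07, adjusted p = 0.045).

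Of 18 other liver-secreted hormones tested, 4 were called lower in male liver in M8/F8 and none higher (median -0.42). Hamp2, a hepcidin gene, was at -2.94 (adjusted p = 0.00305) and Fgl1, a fibrinogen-like hepatokine, at -1.99 (adjusted p = 0.000364). Hamp, which encodes the iron hormone hepcidin, rose in F8/F3 (1.75, adjusted p = 0.00131), as did Smoc1, a secreted calcium-binding protein (0.66, adjusted p = 0.00267). Hamp and Hamp2 are near-identical copies, so their signals may mix. Of 9 genes of growth hormone signalling, 2 were called lower in male liver in M8/F8 (median -0.50), with Cux2, a female-biased repressor, at -4.98 (adjusted p = 0.000118).

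For the series as a whole, 55.2% to 77.2% of spots in a channel of an array were well above background and no spot was saturated. Directions follow the dyes of the sample labels, and the example in the study's methods puts the dyes of the M3/F3 replicates the other way round. On all 6 sex arrays, genes of the Y chromosome were higher in the pool labelled male and Xist in the pool labelled female. The age arrays have no such marker. Their male minus female age changes had the same sign as those implied by the sex arrays for 9 of the 9 genes from 3 wk and for 9 of 9 from 4 wk (r = 0.971 and 0.962 across 20451 probes, which are not independent), whereas dyes exchanged on all age arrays would turn that sign. All 8 hepatocyte markers were measured, and 2 fell in M8/M3. Of 7 erythroid markers, 6 fell in each of the 4 age comparisons, and 1 was called higher in each of M8/M3 and M8/M4.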

How the data were processed

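The deposited scanner output came from Agilent 4x44k two-colour arrays read by the authors with Feature Extraction 10.7.1.1 (probe annotation on mm9), which subtracted background and applied linear and then LOWESS dye normalization array by array. It holds spot intensities as pixel medians, and the ratio of each spot as the deposited log10 of red over green. The series table, log10 values from the authors, differed from these ratios by at most 0. The error of each ratio, a score that the software of the authors modelled, was used only in an error-weighted alternative. A column of the authors' p-values for single spots was not used.

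Ratios were converted to log2, turned to male over female or to older over younger by the labelled dye, and averaged over spots of a probe. Non-uniform outliers (0 to 10 an array) were left out. R 4.3.3 with limma 3.58.1 fitted 39429 probes on 14 arrays, with 7 comparison coefficients and a dye term, and adjusted p by Benjamini-Hochberg over all probes and comparisons, or within each contrast of comparisons. Names came from RefSeq accessions (26055 probes named, 13374 unnamed). The level of a pool is the channel's log2 intensity after normexp (offset 50), loess and Aquantile, without a correction for dye. The fit was also run on simulated data, whose outcome is not given here. These held no dye effect, so they cannot show whether the dye term separates dye from pools.

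The members, gene lists and tests were chosen with earlier results of these data known. Genes named from a list are the up to 4 with the largest called ratio over the 7 comparisons. A gene that this rule named is not reported here. The labels give 2 pools a group. That same-numbered pools recur was checked around the M3/F3 and M4/F4 loops, where replicate differences correlated across 20451 probes (r = 0.913 and 0.904), so replicate numbers pair arrays. The 2 scan days hold different comparisons, so day and comparison cannot be told apart. Alternatives were other background corrections, thresholds, adjustments and models, and each array left out in turn. The number of arrays limits the precision.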

Additional observations from a re-analysis of the deposited data

Results flagged for a closer look

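The change of Lect2 from 3 to 8 wk differed between the sexes in the test of the difference itself (M8/M3 minus F8/F3, -0.87, adjusted p = 0.0346 in the limma fit). The call was kept in 2 of the 14 fits with 1 array left out (adjusted p 0.0396 to 0.161) and under 13 of the 16 other alternatives, and it was lost with the slide block (adjusted p = 0.0722), without the second M8 pool (adjusted p = 0.269) and at the study's unadjusted threshold. Lect2 was lower at 8 wk on both male arrays and on both female arrays.

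The sex ratio of Inhbe had opposite directions at different ages on every array. M8/F8 minus M3/F3 was -0.79 and M8/F8 minus M4/F4 was -0.82, and these 2 differences between sex ratios were not tested as such. No group had the 4 samples needed to look for a single outlying sample.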

How the results depend on the processing

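No ratio of the 9 genes that was called changed direction under the 16 alternatives or with any of the 14 arrays left out. With 1 array left out, the number of members called was 0 in M3/F3, 1 in M4/F4, 2 in M8/F8, 3 to 5 in M8/M3 and 2 to 4 in M8/M4, 1 to 3 in F8/F3 with 1 in F8/F4, 0 to 1 in M8/M3 minus F8/F3, and 0 in M8/M4 minus F8/F4 and both indirect contrasts. Of 176 counts under the 16 alternatives, 144 stayed within 1.5 times the reported count and 32 moved. With normexp and loess, run on pixel medians because the files hold no pixel means, the count became 0 in F8/F4 and 2 in M8/M3 minus F8/F3. Without the fold threshold it was 3 in M4/F4 and 2 in M8/M3 minus F8/F3. At the study's unadjusted p threshold of 0.0001 it was 0 in M4/F4, 3 in M8/M3, 1 in M8/M4, 1 for F8/F3 and 0 in M8/M3 minus F8/F3. With the error-weighted average it was 1 in M8/F8, 2 in M8/M4 and 1 in M8/M4 minus F8/F4, with Angptl4 called in F8/F4 in place of Ahsg, and with p adjusted within each comparison 0 in M4/F4. Without the dye term it was 0 in M4/F4, 1 in M8/F8, 3 in M8/M3, 2 in M8/M4, then 1 for F8/F3 and 0 for F8/F4. The array difference that this term held then entered the spread, and dye and pool cannot be told apart in it. With the slide block the count was 1 in F8/F3 and 0 in M8/M3 minus F8/F3. With 6 group means it was 2 in F8/F4, 3 in M8/M3 minus F8/F3, 2 in M8/M4 minus F8/F4, and 1 in each indirect contrast, and with a covariance that holds the shared pools 1 in M8/M3 minus M8/M4. Without the second M8 pool, an alternative chosen after seeing the data, it was 0 in M4/F4, 0 in M8/F8, 1 in M8/M3, 1 in M8/M4 and 0 in M8/M3 minus F8/F3, on fewer arrays. For the other moved counts the cause was not tested. The replicate block gave 4 in M8/M3 and 3 in M8/M4, losing Inhba in M8/M3 and Fgf21 in M8/M4, and changed no other call. A second probe per gene was not run, since each member has 1 probe.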
